A study of Homo sapiens with 6 samples.

Results

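The ABC drug efflux transporters described here are 9 genes of the ATP-binding cassette family, ABCB1, ABCB4, ABCC1, ABCC2, ABCC3, ABCC4, ABCC5, ABCC10 and ABCG2, chosen by their symbols among the 58735 genes of a raw count table. All 9 had a row, and 8 had enough counts to be tested. The table came from poly(A)-selected RNA-seq of ACHN cells, an established line from a human renal carcinoma, which the labels call clear cell renal cell carcinoma cells of wild-type genotype. Groups were 3 control libraries, labelled as vehicle controls although the design text says that no drug was given, and 3 libraries of cells treated with curcumol, a sesquiterpenoid of Curcuma rhizomes, at a dose and for a time that no source used here gives. The libraries were described as independent biological replicates, and the stated interest was in glycolysis and malignant behaviour.

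ABC transporters use ATP to move molecules across membranes, and those described here carry drugs, toxins and conjugated metabolites out of cells. P-glycoprotein (ABCB1), the multidrug resistance proteins (ABCC genes) and the breast cancer resistance protein (ABCG2) are known for lowering drug levels inside tumour cells. In the renal proximal tubule several of them lie in the apical membrane and pass drugs and anions into the urine.

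Curcumol-treated cells had more mRNA of ABCB1, ABCC2 and ABCC5 and less of ABCC1, ABCC3, ABCC4, ABCC10 and ABCG2. Thus 3 of the 8 tested transporters rose and 5 fell, by the quasi-likelihood test of edgeR with adjusted p under 0.05. Over all 15160 genes tested, 39.4% rose and 40.3% fell, 79.7% together, so calls in both directions were the rule in this experiment and the count of called transporters says little about them as a set. The median log2 fold change (curcumol over control) of the 8 was -0.66 and the median absolute log2 fold change was 1.56, where all genes tested had -0.02 and 0.88. For each of the 8 the control and curcumol libraries did not overlap in CPM, the counts scaled to a common library total with TMM factors, as for 81% of genes tested.

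The promoters of the 3 transporters that rose, and of the one that fell most, are shown so that the letters before their starts can be set beside the changes given below. RefSeq windows (GRCh38.p14) were found for 6 of the 9, and ABCB4, ABCC1 and ABCC3 had no entry. Each sequence is the 250 bases before a RefSeq start, 5′ to 3′ on the strand of the gene, with capitals marking exact matches on either strand to the motifs named below.
ABCB1, downstream start, chr7:87600885-87601134, minus strand: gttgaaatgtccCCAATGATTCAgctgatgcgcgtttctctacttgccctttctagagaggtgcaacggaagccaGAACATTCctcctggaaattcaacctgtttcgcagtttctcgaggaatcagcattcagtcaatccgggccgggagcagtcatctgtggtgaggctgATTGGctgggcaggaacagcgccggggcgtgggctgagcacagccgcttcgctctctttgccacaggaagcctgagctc
ABCC2, chr10:99782390-99782639, plus strand: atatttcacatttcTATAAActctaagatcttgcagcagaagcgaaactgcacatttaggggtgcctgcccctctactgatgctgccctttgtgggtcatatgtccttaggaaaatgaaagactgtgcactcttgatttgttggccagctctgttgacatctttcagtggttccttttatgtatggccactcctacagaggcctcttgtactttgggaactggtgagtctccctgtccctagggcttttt
ABCC5, chr3:184017885-184018134, minus strand: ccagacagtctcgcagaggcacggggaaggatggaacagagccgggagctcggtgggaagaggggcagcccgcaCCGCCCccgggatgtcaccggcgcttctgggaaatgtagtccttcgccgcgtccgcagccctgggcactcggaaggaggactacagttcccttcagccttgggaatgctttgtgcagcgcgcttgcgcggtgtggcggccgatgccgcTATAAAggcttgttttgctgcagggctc
ABCC10, 1 of 2 RefSeq starts, chr6:43427613-43427862, plus strand: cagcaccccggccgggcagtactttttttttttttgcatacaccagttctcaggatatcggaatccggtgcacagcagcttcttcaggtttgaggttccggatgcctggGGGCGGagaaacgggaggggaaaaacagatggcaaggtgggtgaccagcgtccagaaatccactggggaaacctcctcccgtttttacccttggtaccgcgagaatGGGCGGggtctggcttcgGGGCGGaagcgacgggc

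The motifs searched were the GC box GGGCGG, the CCAAT box CCAAT, the TATA box TATAAA, the heat shock element core GAANNTTC and its inverted form TTCNNGAA, the antioxidant response element core TGACNNNGC, the AP-1 site TGANTCA and the hypoxia response element core ACGTG. The downstream ABCB1 window held CCAAT boxes 79 and 238 bases before the start (first base), an AP-1 site at 234, which shares 1 base with the second CCAAT box, and a heat shock element core at 175. The window before the other ABCB1 start held none of these motifs. Of 35116 RefSeq windows of the same length, 32% held a CCAAT box, 6.57% an AP-1 site, 5.78% the heat shock core and 6.62% its inverted form. ABCC2 held a TATA box 236 bases before its start, and ABCC5 held one at 28, where 10.7% of windows held one, and ABCC5 also held a GC box, as did 42.6% of windows. The ABCC10 window shown held 3 GC boxes. The window before its other start held a TATA box, the inverted heat shock core, the antioxidant core and the hypoxia core, which occurred in 10.9% (antioxidant) and 18.5% (hypoxia) of windows. The antioxidant core was also present for ABCC4, 149 bases before its start. ABCG2 had windows for 5 RefSeq starts, of which 2 overlapping ones held GC boxes and hypoxia cores and 3 held none of the motifs. These matches describe the letters of the windows, and the gene counts do not tell which start was used.

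ABCB1 encodes P-glycoprotein, an apical pump for many hydrophobic drugs (ENSG00000085563, chromosome 7, 87503633 to 87713323, minus strand, GRCh38). It had 45, 47 and 52 counts in the control libraries and 425, 393 and 410 in the curcumol libraries. In CPM these were 2.42, 2.43 and 2.68 in control against 27.2, 24.7 and 25.9 in curcumol. All 3 curcumol libraries lay far above all 3 controls. The fold was 10.3, a log2 fold change of 3.36 (edgeR, SE 0.13, adjusted p = 1.59e-15), and 2.7% of genes tested rose at least as much.

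ABCB4, the gene beside it, encodes a floppase that moves phosphatidylcholine into bile (chromosome 7, 87401697 to 87480435, minus strand). It had 3, 0 and 1 counts in control against 1, 3 and 4 in curcumol, too few to be tested. Without the filter on low counts its log2 fold change was 1.13 (edgeR adjusted p = 0.479). The ranges of the groups overlapped, and no difference was detectable at this depth. ABCB1 and ABCB4 are the most alike pair of the 9 in sequence shared between transcripts: 54 of 5942 words of 75 bases in ABCB1 transcripts (0.909%) also occurred in ABCB4. How the counting tool placed reads in such stretches is not known.

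ABCC2 encodes MRP2, an apical pump of the proximal tubule and of hepatocytes for glutathione and glucuronide conjugates (ENSG00000023839, chromosome 10, 99782640 to 99852594, plus strand). Its counts were 16, 10 and 17 in control against 129, 163 and 170 in curcumol. The CPM values were 0.861, 0.516 and 0.878 in control against 8.26, 10.2 and 10.7 in curcumol. This was a 12.9-fold rise with no overlap, the largest log2 fold change of the 8 (3.69, edgeR, SE 0.23, adjusted p = 3.91e-12). The small counts of the controls make its size less precise than that of ABCB1, and it ran from 3.48 to 3.80 when each library was left out in turn.

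ABCC5 encodes MRP5, a widely expressed exporter of cyclic nucleotides and nucleotide analogues (ENSG00000114770, chromosome 3, 183919934 to 184018015, minus strand). It went from 918, 863 and 918 counts (49.4, 44.5 and 47.4 CPM) in control to 1450, 1367 and 1396 (92.9, 85.8 and 88.1 CPM) in curcumol. The curcumol libraries were all higher. Its log2 fold change was 0.92 (edgeR, SE 0.07, adjusted p = 1.45e-10), and 23.1% of genes tested rose at least as much.

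**Figure D1:**
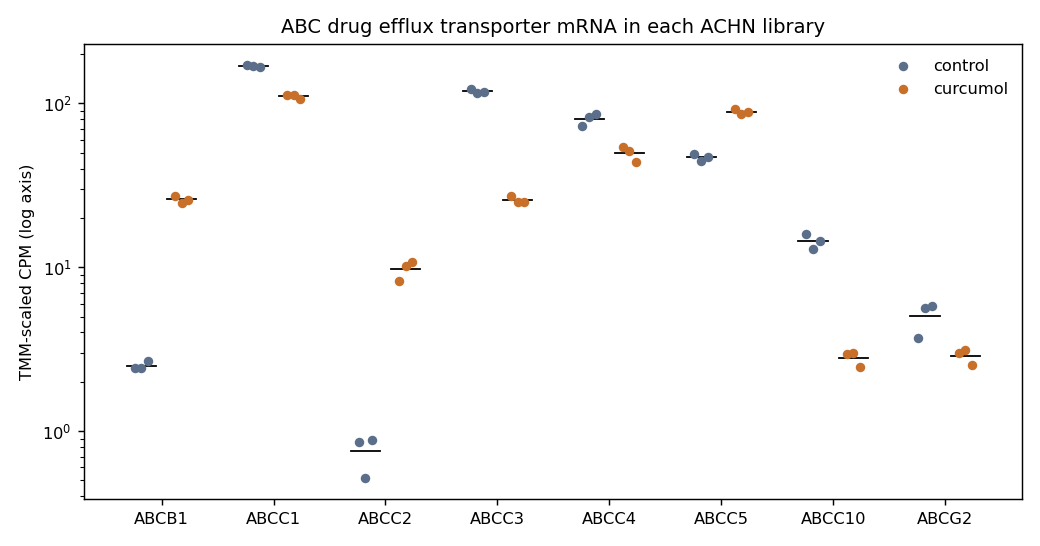
TMM-scaled CPM (log axis) of the 8 tested transporters in each library, with controls in blue-grey, curcumol in orange and a black line at each group mean (n = 3). ABCB1 and ABCC2 rose from 2.51 and 0.751 CPM to 25.9 and 9.74 CPM, and ABCC3 and ABCC10 fell.

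Among those that fell, ABCC10 and ABCC3 changed most. ABCC10 encodes MRP7, an exporter known for carrying taxanes (ENSG00000124574, chromosome 6, 43427366 to 43450430, plus strand). It had 297, 251 and 282 counts in control against 46, 48 and 39 in curcumol, or 16.0, 12.95 and 14.6 CPM against 2.95, 3.01 and 2.46 CPM. All curcumol libraries were lower, by 5.15-fold (log2 fold change -2.36, edgeR, SE 0.16, adjusted p = 1.11e-11). ABCC10 shares 79 exonic bases with DLK2 on the other strand, and since use of strand is not stated, reads in those bases cannot be told apart. DLK2, a NOTCH-interacting membrane protein gene, had 35, 41 and 44 counts in control against 3, 2 and 5 in curcumol, a log2 fold change of -3.27 (-2.68 with the GC offset).

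ABCC3 encodes MRP3, a basolateral exporter of glucuronides and bile salts (ENSG00000108846, chromosome 17, 50634777 to 50692252, plus strand). Its counts were 2263, 2258 and 2263 in control against 425, 398 and 394 in curcumol, so each group was tight and the groups were far apart. In CPM it went from 121.8, 116.5 and 116.8 to 27.2, 24.99 and 24.9. The log2 fold change of -2.20 (edgeR, SE 0.07, adjusted p = 1.01e-16) had the smallest p of the 8, and 6.74% of genes tested fell at least as much.

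The other falls were smaller. ABCC1 encodes MRP1, which exports glutathione conjugates and cysteinyl leukotrienes (ENSG00000103222, chromosome 16, 15949577 to 16143074, plus strand). It was the most counted of the 9, with 3202, 3259 and 3249 counts in control (172.3, 168.1 and 167.7 CPM) and 1754, 1781 and 1693 in curcumol (112.4, 111.8 and 106.9 CPM). All curcumol libraries were lower, with a log2 fold change of -0.62 (edgeR, SE 0.06, adjusted p = 3.43e-09), and 32.4% of genes tested fell at least as much. With an offset for the GC content of transcripts the change was -0.27.

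ABCC4 encodes MRP4, an exporter of cyclic nucleotides, prostaglandins and urate (ENSG00000125257, chromosome 13, 95019829 to 95301475, minus strand). It had 1344, 1597 and 1678 counts in control (72.3, 82.4 and 86.6 CPM) and 847, 819 and 691 in curcumol (54.3, 51.4 and 43.6 CPM). The groups did not overlap, although both were wider than those of ABCC1. The log2 fold change was -0.69 (edgeR, SE 0.09, adjusted p = 2.45e-07).

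ABCG2 encodes the breast cancer resistance protein, which works as a pair of like subunits and also exports urate (ENSG00000118777, chromosome 4, 88090264 to 88231322, minus strand). It had 69, 110 and 112 counts in control (3.71, 5.68 and 5.78 CPM) and 47, 50 and 40 in curcumol (3.01, 3.14 and 2.53 CPM). Control replicate 1 lay close to the curcumol libraries but did not fall among them. The log2 fold change was -0.81 (edgeR, SE 0.22, adjusted p = 0.00198), the largest adjusted p of the 8. With the GC offset it was -1.22.

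**Figure D2:**
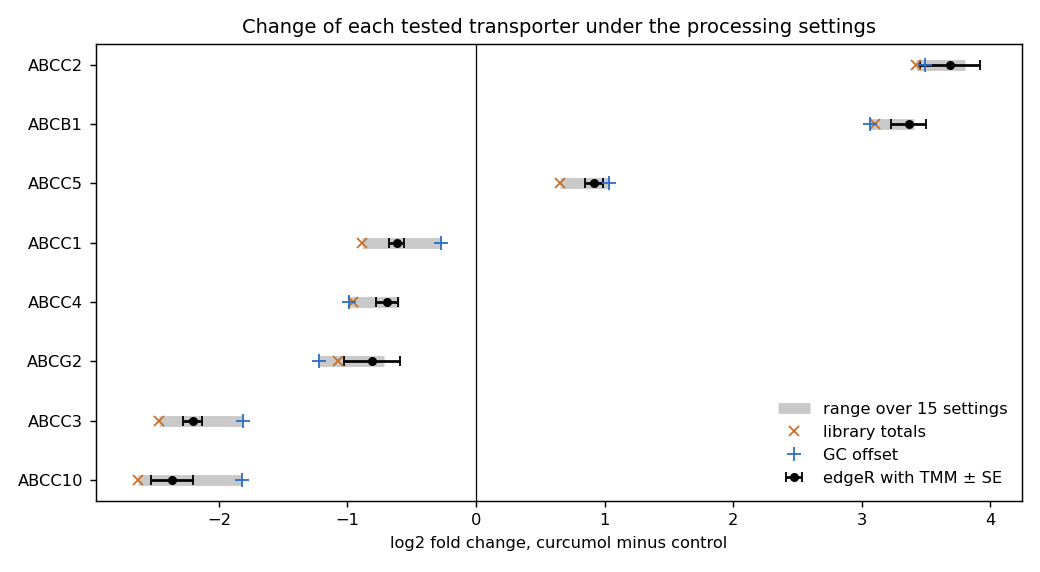
Log2 fold change (curcumol minus control) of each tested transporter, with black points and bars for the edgeR estimate ± SE, grey bars for the range over all settings tried, crosses for scaling by library totals and plus signs for the GC offset. Each grey bar stays on 1 side of 0, from ABCC2 at 3.42 to 3.80 down to ABCC10 at -2.63 to -1.82.

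With library totals as the only scaling, the median over all genes tested stood at -0.28 instead of -0.02, and each of the 8 kept its direction and its call under it. ABCB1 then stood at 3.10, ABCC2 at 3.42, ABCC5 at 0.65, ABCC1 at -0.88, ABCC4 at -0.96, ABCG2 at -1.07, ABCC3 at -2.47 and ABCC10 at -2.63. Ratios of counts between 2 genes inside a library do not depend on the scaling between libraries. They were taken without the GC offset, which shifts genes of different GC content by different amounts. Relative to ABCC1, ABCC5 went from 0.287, 0.265 and 0.283 in control to 0.827, 0.768 and 0.825 in curcumol, and ABCC3 from 0.707, 0.693 and 0.697 to 0.242, 0.224 and 0.233. Both ratios were separated between the groups. So were those of ABCC2 (log2 difference 4.35) and ABCC10 (-1.75) to ABCC1. The ABCC4 to ABCC1 ratio was 0.420, 0.490 and 0.517 in control against 0.483, 0.460 and 0.408 in curcumol, and these ranges overlapped (log2 difference -0.08). With the GC offset, however, the log2 fold changes of these genes lay apart, at -0.99 for ABCC4 and -0.27 for ABCC1. ABCC2 then stood at 3.49, ABCC5 at 1.03, ABCC3 at -1.81 and ABCC10 at -1.82. By the two-sided exact permutation test the 4 separated ratios gave p = 0.1 each, the smallest p that 3 against 3 libraries allow, and ABCC4 gave p = 0.5. After Benjamini-Hochberg adjustment over the 5 ratios these exact permutation values were p = 0.125 and p = 0.5. The ratio of ABCB1 to ABCB4 was not taken, because control replicate 2 had 0 counts of ABCB4.

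The levels of different transporters were compared per kb of the longest annotated transcript, as CPM per kb. In control the order was ABCC1 (25.7 ± 0.38, SD, n = 3), ABCC3 (20.7 ± 0.52), ABCC4 (13.03 ± 1.19), ABCC5 (7.96 ± 0.41), ABCC10 (2.85 ± 0.30), ABCG2 (1.13 ± 0.26), ABCB1 (0.525 ± 0.032), ABCC2 (0.129 ± 0.035) and ABCB4 (0.0166 ± 0.0193). No neighbours in that order overlapped across the 3 libraries. In curcumol the order was ABCC1 (16.7 ± 0.46), ABCC5 (15.02 ± 0.61), ABCC4 (8.07 ± 0.89), ABCB1 (5.43 ± 0.27), ABCC3 (4.50 ± 0.23), ABCC2 (1.68 ± 0.23), ABCG2 (0.646 ± 0.072), ABCC10 (0.552 ± 0.059) and ABCB4 (0.0394 ± 0.0225). Here ABCG2 and ABCC10 overlapped, which they did not when all annotated exons were used as the length. The order of the means was the same with either length.

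ABCB1 thus passed from the seventh to the fourth place and ABCC3 from the second to the fifth. The 9 together summed to 72.2, 71.2 and 72.8 CPM per kb in control and to 54.7, 52.4 and 50.9 in curcumol, with no overlap. ABCC1 made up 35.7% ± 0.65 of the sum in control and 31.8% ± 0.59 in curcumol (SD, n = 3). ABCC3 went from 28.7% ± 0.73 to 8.53% ± 0.19, ABCC5 from 11.04% ± 0.50 to 28.5% ± 0.81 and ABCB1 from 0.729% ± 0.037 to 10.3% ± 0.41. The shares depend on the length used. Per kb of all annotated exons, ABCC1 stood at 14.57 and ABCC5 at 7.775 CPM in curcumol. The sum weighs mRNAs per length and not transport activity.

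**Figure D3:**
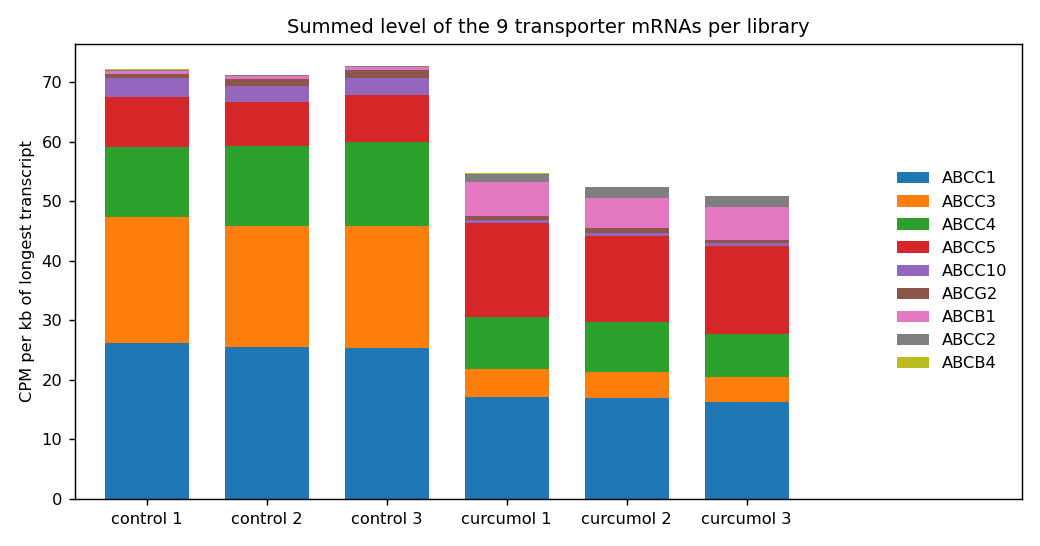
Summed level of the 9 transporters in each library as stacked bars (CPM per kb of longest transcript), 1 colour per gene. The controls sum to 71.2 to 72.8 and the curcumol libraries to 50.9 to 54.7, with a smaller share of ABCC3 and larger shares of ABCC5 and ABCB1 in curcumol.

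The remaining ABC genes carry mostly lipids, peptides or heme-related molecules, or act in translation. Of 39 such genes 23 were tested, of which 8 rose, 10 fell and 5 did not pass (median log2 fold change -0.01). ABCA3, a phospholipid transporter of lamellar bodies, went from 79.9 ± 3.02 to 14.9 ± 0.78 CPM (n = 3, SD), a log2 fold change of -2.43. The fall of ABCC6, the gene next to ABCC1 and known for its part in preventing ectopic calcification, was -2.58 at few counts (218 summed in control and 30 in curcumol), and its annotated pseudogenes make its counts uncertain. ABCC9, the sulfonylurea receptor of potassium channels, rose by 1.95 and ABCD3, a peroxisomal fatty acid transporter, by 1.15. The mitochondrial transporter ABCB10 fell by 1.24 on the log2 scale. ABCB8, also mitochondrial, changed by -0.68 and ABCA2 by -0.83, and both lost their calls with the GC offset (-0.07 and -0.09). TAP2, a subunit of the peptide transporter for antigen presentation, fell by 0.57 and ABCA5 rose by 1.73. The GC offset gave smaller changes that still passed for ABCA5 (0.97), ABCD3 (0.54) and ABCA3 (-1.81). ABCD4 rose by 0.33, a call lost with library totals. In the ABCF group, which acts in translation, ABCF2 fell by 0.58, ABCF1 rose by 0.22 but stood at -0.050 with library totals, and ABCF3 was at 0.03 and did not pass. ABCF3 passed in opposite directions with library totals (-0.23) and with the GC offset (0.45).

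The other 16 ABC genes had too few counts to be tested, 20 in all control libraries together and 159 in all curcumol libraries. Of 11 that had 0 counts in control, 10 had at least 1 count in curcumol, among them the chloride channel gene CFTR (10 counts) and the sterol transporter gene ABCG8 (24 counts). Some of the 10 had very few, such as ABCC8 (1 count) and ABCA8 (2 counts). Genes picked for 0 counts in control can only stay or rise, so the 10 of 11 says little about them. Over the whole table, 4998 genes had counts in curcumol only and 2559 in control only. The share of all genes at 0 in control that had counts in curcumol was not taken.

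Carriers of the SLC superfamily move drugs and organic ions across membranes, many of them into cells but not all. Of 38 listed, 20 were tested, of which 9 rose, 7 fell and 4 did not pass (median log2 fold change 0.09). The falls with the smallest p were large. SLC19A1, the reduced folate carrier that takes up methotrexate, went from 42.3, 43.6 and 39.2 CPM in control to 3.78, 4.21 and 4.10 in curcumol (log2 fold change -3.37, edgeR, SE 0.12, adjusted p = 1.32e-16). SLC29A1, the nucleoside carrier ENT1, went from 144, 153.8 and 137.3 CPM to 27.0, 25.6 and 19.7 (-2.59 ± 0.09, SE), and SLCO2A1, a prostaglandin carrier, from 18.6 ± 0.64 to 1.12 ± 0.18 CPM (SD, n = 3; -4.04). SLC29A2, the related ENT2, also fell (-3.79), and SLC31A1, the copper carrier CTR1, rose by 1.12. These last 2 were named after their values were seen. With the GC offset SLC19A1 stood at -2.61 and SLC29A2 at -3.15, and both still passed. The organic anion carriers of the proximal tubule SLC22A6 and SLC22A8 had 0 counts in all 6 libraries.

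Of 4 listed genes for drug or metal export outside the ABC family, 2 rose and 2 fell. The copper pump genes moved apart, with ATP7A at 1.41 and ATP7B at -0.97, and MVP, the major vault protein, fell by 0.86 (-0.22 with the GC offset). Conjugating enzymes, which make substrates of the MRP pumps, had 7 of 14 tested genes higher and 4 lower (median 0.42), and 25 of the 39 listed were not tested. MGST1, a microsomal glutathione transferase, rose from 146.3 ± 8.88 to 347.3 ± 11.4 CPM (n = 3, SD), a log2 fold change of 1.247. UGT2B7, a glucuronosyltransferase, fell by 2.01 and GSTK1, a mitochondrial and peroxisomal glutathione transferase, by 1.52.

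**Figure D4:**
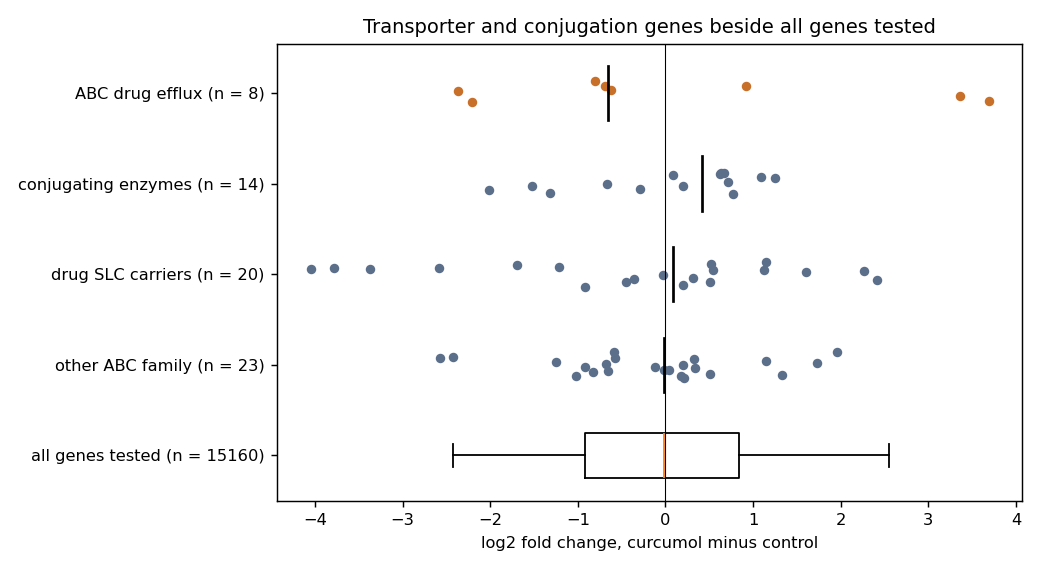
Log2 fold changes (curcumol minus control) of the tested genes in 4 lists, 1 point per gene with a line at the median, above a box of all 15160 genes tested (quartiles, whiskers at the 5th and 95th percentiles). The points of ABC drug efflux genes run from -2.36 to 3.69, and the box from -0.92 to 0.84.

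Transcription factors reported at promoters of these transporters went both ways. Of 26 listed, 24 were tested, of which 10 rose, 6 fell and 8 did not pass (median 0.17). YBX1, a Y-box factor, rose by 0.92, JUN of AP-1 by 1.22, and EPAS1, which encodes HIF-2 alpha, fell by 1.249. The following were named after their values were seen. NFE2L2, which encodes NRF2, rose by 1.22 and the aryl hydrocarbon receptor AHR by 1.46, and HSF1 fell by 0.68 but stood at 0.091 with the GC offset (edgeR adjusted p = 0.249). NR1I2, the xenobiotic receptor PXR, had 0 counts in control and 4 in curcumol. Of 10 scaffold and trafficking genes that hold such pumps at the membrane or move them, 5 rose and 3 fell (median 0.08). MSN, moesin, rose by 0.67, NHERF2 (SLC9A3R2 in the table) fell by 2.08 and caveolin CAV1 by 0.64. With the GC offset NHERF2 stood at -1.24.

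Genes beside the transporters did not share their direction throughout. ABCB1 lies between ABCB4 and SLC25A40, a mitochondrial carrier gene, which changed by -0.22, a call lost without control replicate 3 (-0.15), without curcumol replicate 1 (-0.20), without curcumol replicate 2 (-0.21), with DESeq2 and with its size factors, while the GC offset gave a larger fall (-0.94) that passed. RUNDC3B, on the other strand over the ABCB1 gene body with 0 shared exonic bases, had 5, 0 and 2 counts in control against 7, 18 and 14 in curcumol and was not tested. CROT, a peroxisomal acyltransferase gene on the other side of ABCB4, rose by 0.43, but lost its call with library totals (0.16) and stood at -0.048 with the GC offset. CUTC (-0.99) and DNMBP (-0.24), on either side of ABCC2, fell where ABCC2 rose. FOPNL, a centrosome gene beside ABCC1, rose by 1.64 where ABCC1 fell, while ABCC6, the closer neighbour 5854 bases away on the other side, fell (-2.58). ABCC10 lies between ZNF318 (-1.30) and TJAP1 (1.29), and DLK2, which overlaps ABCC10 on the other strand, fell like it (-3.27). ABCG2 lies between PKD2 (-0.67), the polycystin 2 gene, and PPM1K (2.05). ANKRD40 beside ABCC3 fell by 0.38, and PARL beside ABCC5 was at 0.15 and did not pass. The genes closest to ABCC3 in log2 CPM centred over the 6 libraries were TANGO6 (distance 0.0902), CCBE1 (0.101) and NDST1 (0.106), with log2 fold changes of -2.19, -2.17 and -2.23.

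Several measures of the libraries and cells moved with treatment, and their part in the results above was not tested. Library totals did not, as those of curcumol (17256960 to 17410920 counts) lay inside the range of the controls (16962012 to 17827433). TMM factors ran from 1.09 to 1.10 in control and from 0.90 to 0.92 in curcumol. The longest transcripts of ABCC10 (58.8% GC), ABCC3 (55.8%) and ABCC1 (54.9%) were richer in GC than those of ABCB1 (43.1%) and ABCC2 (44.9%), but ABCC4 (43.2%) and ABCG2 (41.2%), which fell, were not, and ABCC5 (50.8%), which rose, lay between. Of 14 renal markers 10 were tested, of which 8 fell and 2 rose. Of all genes tested, 40.3% fell and 39.4% rose. The 2 markers that rose were GGT1 (log2 fold change 1.13) and CUBN (2.31, at 17 and 71 summed counts). The summed level of the 14 was 5067 to 5421 CPM in control and 3505 to 3926 in curcumol. PAX8 and KRT8 were present at 192.2 and 1970 CPM in control, while CA9, an enzyme typical of clear cell carcinoma, had 1 count in control and 5 in curcumol and LRP2 of the proximal tubule had 0. Summed leukocyte markers were 0.155 to 0.258 CPM in control and 6.21 to 6.84 in curcumol, where most came from CD14. The 2 of 5 that rose were CD14, at 5 and 215 summed counts, and CD79A, at 1 and 61. The others were not tested, with CD68 at 5 and 15, PTPRC at 0 and 20 and CD3E at 0. Fibroblast markers were 7.07 to 8.29 and 7.62 to 17.6 CPM (2 of 5 rose and 1 fell). Among the curcumol libraries each of them was highest in replicate 2, where LUM had 22 counts and DCN 11, with 0 in the others. COL3A1 (0 and 109 summed counts) and PDGFRB (142 and 280) rose, and COL1A1 (285 and 107) fell. Endothelial markers were 0.310 to 0.431 and 0.320 to 0.821 CPM with none tested. In bulk RNA a change in the share of cells and a change in RNA per cell cannot be told apart.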

How the data were processed

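A single table of unnormalized counts was deposited by the authors, with 1 whole number for each Ensembl gene in each of 3 control and 3 curcumol libraries, which were grouped by their labels. The submitters' processing notes name GRCh38 (hg38) as the build. The sources used here name neither aligner nor counting tool, and neither the annotation release nor the use of strand. All 58735 identifiers were found in GENCODE 29 (Ensembl 94), which gave coordinates, exon overlaps, transcript lengths and GC content. Totals were 16962012 to 17827433 counts per library. Within groups log2 CPM correlated at 0.988 to 0.992 across genes, and no pair of libraries agreed within sampling noise (chi-square of 3.58 to 8.58 for each degree of freedom), so all 6 were kept as separate samples.

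The fit used filterByExpr (15160 genes kept), TMM scaling and the robust quasi-likelihood F test of edgeR 4.0.16 in R 4.3.3. P-values were adjusted by Benjamini-Hochberg over all genes tested, with a threshold of 0.05. SE was obtained from the log2 fold change and the F statistic. The code was tested on simulated data, where it recovered 34.7% of 1.25-fold and 100% of 4-fold changes, and 7.52% of calls were false. A far smaller share of genes was changed there than was called here, so scaling was not tested under such broad change. The transporters and gene lists were chosen with earlier results of these data known, and the motifs after the transporters' values were seen. Of the list entries, 1 conjugating enzyme had no row.

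The genes named were the 9 transporters, the 3 genes of each list with the smallest p, the nearest protein-coding neighbours, genes with overlapping exons, and the 3 genes closest in profile to the transporter with the smallest p. Of the genes this rule names, 1 is not reported here. Other genes were named after their values were seen, among them CFTR, ABCG8, SLC22A6, SLC22A8, RUNDC3B and single markers. Alternatives were DESeq2 1.42.0 and its size factors within edgeR, limma-voom (limma 3.58.1), library totals, no filter, a filter at a mean of 1 CPM and 50 counts, a replicate block, a GC offset (spline, 5 degrees of freedom) and each library left out in turn.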

Additional observations from a re-analysis of the deposited data

How the results depend on the processing

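Each of the 8 tested transporters kept its direction and its call under all 14 alternatives, and the counts of 3 higher and 5 lower did not move. No pairing by replicate number was detected. Deviations of same-numbered libraries from their group means correlated at -0.0123 to 0.0751, and not every library correlated best with its own number. The largest value did belong to a same-numbered pair, and deviations among 3 libraries constrain one another, so pairing remains unsettled. With the replicate block ABCB1 stood at 3.36 and ABCG2 at -0.79, and 5955 genes were higher and 6131 lower. Over all genes, library totals gave 4818 higher and 7372 lower, against 5967 and 6109. Among other named genes, signs turned with the GC offset for CROT (-0.048) and HSF1 (0.091), with library totals for ABCF1 (-0.050), ABCF3 (-0.23) and PARL (-0.11), and for ABCF3 also with no filter (-0.016) and with 1 library left out (-0.0275 to 0.0602). The cause was not tested. The 8 other ABC genes that rose became 5 with library totals and 14 with no filter, and the 10 that fell became 6 with the GC offset. With library totals the 9 SLC carriers that rose became 5, the 7 conjugating enzymes 4, the 2 export genes 1 (also 1 with no filter) and the 5 scaffold genes 3. The 6 transcription factor genes that fell became 10, and the 3 scaffold genes that fell became 5, with library totals and likewise with the GC offset. The within-library ratios to ABCC1 kept their direction with each library left out. Depth limits ABCB4, and the small control counts of ABCC2.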
